A study of Canis lupus familiaris with 11 samples.

Results

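The genes described here are those of DNA replication and S phase, 35 genes whose products license and open replication origins, copy the DNA, supply its nucleotides and start or guard S phase. A gene was represented by the array feature with the highest mean over 8 arrays among the features that named that gene alone. By this rule 33 of the 35 genes were represented, out of 15947 genes in all, and POLD1 and FEN1 were not analysed here. TYMS had several such features, and the other 32 had 1 each.

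Before S phase the MCM2 to MCM7 ring is loaded onto DNA by CDC6 and CDT1, and it becomes an active helicase when CDC45 and the GINS complex join it. DNA polymerases then copy both strands behind the fork, held by the PCNA clamp that replication factor C loads. Many of these genes are transcribed by E2F factors once cyclin-dependent kinases have inactivated the retinoblastoma protein, so their mRNA is scarce in resting cells and abundant in cycling cells. Freshly digested fat holds mostly resting stromal, vascular and immune cells. These roles are background, known mainly from yeast, human and mouse.

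Expression was measured on 11 Affymetrix arrays of stromal vascular fraction (SVF), the cell pellet left when visceral fat of dogs is digested. For dogs 2 and 3, 1 company digested the fat by its own method, and cells were profiled without incubation (SVF) or after light-activated platelet-rich plasma (PRP) and 6 h at 37 °C, with 2 arrays for each dog and condition. The labels give both as neutered male German Shepard mixes of 10 years, in the same words, so only the titles separate them. A neutered male Labrador of 6 years gave 3 equal portions of about 20 g of fat to companies A, B and C, and each company's untreated SVF was thawed after about 1 month of freezing and run on 1 array. All values below are log2 levels, and a difference of 1 unit is 2-fold. PRP and incubation always went together, so a difference between PRP and SVF belongs to both. The labels do not say whether arrays 1 and 2 of a group had their own digestion or only their own hybridisation. The p-values therefore measure no more than the spread between these arrays, which may be technical.

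The array medians lay between 6.76 and 6.85 for dogs 2 and 3 and between 5.14 and 5.31 for the companies, so the sets were compared only within themselves. Stromal markers fixed for this work (9 genes, among them PDGFRA, COL1A1 and DCN) had mean levels from 11.66 to 12.19 in dogs 2 and 3 and from 10.72 to 10.84 in the companies. Adipocyte markers (ADIPOQ, PLIN1, PLIN4, LIPE, CIDEC and LEP) were also high in dogs 2 and 3. Their means ran from 9.20 to 11.79 over these 8 arrays and from 4.79 to 5.52 in the companies. No difference between the sets is read from either marker list. In whole preparations like these, fewer cells of a type and less RNA per cell cannot be told apart. The 2 dog 3 PRP arrays stood farthest apart, with a root mean square difference of 0.516 over genes against 0.347 to 0.365 between the arrays of the other groups. For the 33 replication genes the same distance was 0.472 in that group and 0.283 to 0.383 in the others. Their mean levels over the 8 arrays lay above the median of all features (6.80) for 24 of 33, beside 10228 of 15947 genes. They lay above the upper quartile (8.53) for 6, beside 5468 genes, and under the lower quartile (4.94) for 0, beside 1898.

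The first question was whether PRP with incubation moved the replication genes. It did not move any of them past the threshold: 0 of 33 had an adjusted p below 0.05 over all features in limma, where 2 of 32391 features did (0.00617%). For PRP minus SVF, shares of all genes at an unadjusted p below 0.05 are given for this fit only. Counts under other fits of this comparison thus cannot be read as an excess. At this p, in this fit, there was 1 of 33, higher, beside 3.11% of genes higher and 5.21% lower. This count was 4 with arrays centred on their medians, 4 with quantile normalization and 6 with the replicate number as a term, all higher. It lay between 0 and 4 higher with 1 array left out, at 0 without dog 2 SVF 2 or dog 3 SVF 2 and at 4, with 1 lower, without dog 3 PRP 1. The means of 21 genes were higher after PRP and those of 12 lower, beside 47.4% of all genes higher. The median difference was 0.051 log2 units, beside -0.014 over all genes. Leaving out 1 array at a time gave between 13 and 26 genes higher and medians from -0.021 to 0.12. The 13 and -0.021 came when dog 3 SVF 2 was left out, and when dog 2 PRP 1 was left out there were 15 higher with a median of -0.0014. With the same-numbered arrays of a dog as a replicate block, 0 features and 0 replication genes passed.

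**Figure D1:**
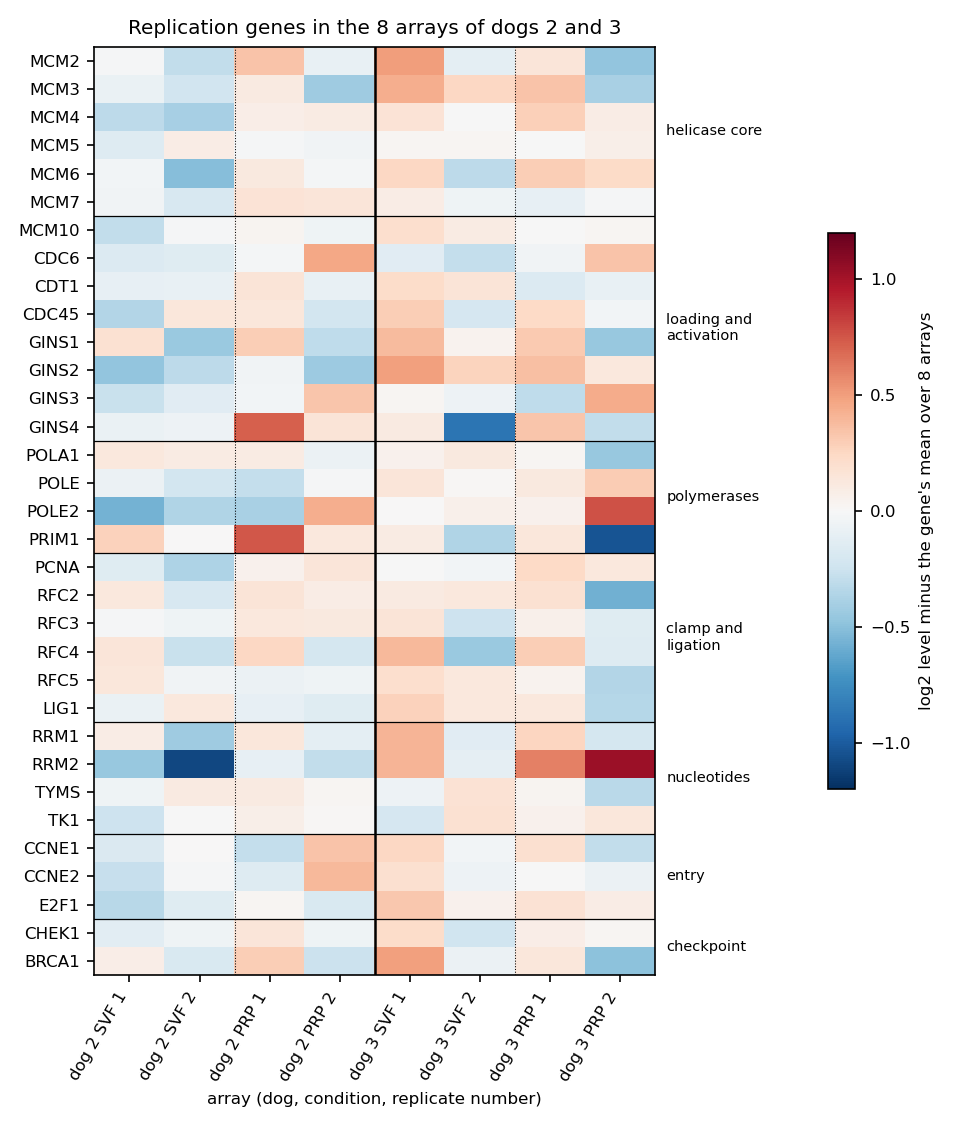
Log2 level of each of the 33 genes (rows, grouped by role) in the 8 arrays of dogs 2 and 3 (columns), minus that gene's mean over the 8 arrays. The strongest colours are in RRM2, lowest at 7.05 in dog 2 SVF 2 and highest at 9.17 in dog 3 PRP 2, and in PRIM1, lowest at 6.90 in dog 3 PRP 2.

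Among the subunits of the helicase ring, MCM6 and MCM4 differed most. MCM6 stood at 8.50 and 8.03 in the dog 2 SVF arrays and 8.66 and 8.51 after PRP, and at 8.78 and 8.22 in the dog 3 SVF arrays and 8.83 and 8.76 after PRP. PRP exceeded SVF on every array of dog 2 and overlapped with it in dog 3, and the difference was 0.31 ± 0.17 log2 units (SE, limma, adjusted p = 0.606). MCM4 read 8.29 and 8.20 untreated and 8.68 and 8.69 after PRP in dog 2, and 8.76 and 8.59 untreated and 8.89 and 8.68 after PRP in dog 3. It showed the same pattern of separation in dog 2 and overlap in dog 3, with a difference of 0.27 ± 0.12 log2 units (SE, limma, adjusted p = 0.53). MCM3 stood at 7.60 and 7.45 in the dog 2 SVF arrays and 7.79 and 7.26 after PRP, and at 8.11 and 7.93 in the dog 3 SVF arrays and 8.03 and 7.30 after PRP. Its number 2 PRP arrays were the lowest in each dog, and the difference of -0.18 ± 0.20 log2 units (SE) had an adjusted p of 0.792 (limma). MCM2, MCM5 and MCM7 ran from 6.57 to 7.55, from 6.73 to 6.98 and from 8.03 to 8.38 over the 8 arrays. They differed by -0.036, 0.0067 and 0.097 after PRP, and MCM7 was the only one of them whose arrays separated, in dog 2.

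Of the genes that load and activate the helicase, CDC6 stood higher after PRP in both dogs. CDC6 stood at 6.58 and 6.59 in the dog 2 SVF arrays and 6.71 and 7.20 after PRP, and at 6.60 and 6.45 in the dog 3 SVF arrays and 6.70 and 7.08 after PRP. PRP and SVF arrays did not overlap in either dog, with PRP higher by 0.13 and 0.092 in the number 1 pairs of dogs 2 and 3 and by 0.61 and 0.63 in the number 2 pairs. The fitted difference was 0.37 ± 0.16 log2 units (SE, limma, adjusted p = 0.53), with a 95% interval from -0.0072 to 0.74. GINS4, a GINS subunit, read 6.88 and 6.90 untreated and 7.67 and 7.11 after PRP in dog 2, and 7.06 and 6.08 untreated and 7.29 and 6.66 after PRP in dog 3. Its highest value was dog 2 PRP 1 and its lowest dog 3 SVF 2, and the difference was 0.45 ± 0.26 log2 units (SE, limma, adjusted p = 0.608).

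Of the other GINS genes, GINS3 separated as GINS4 did, with PRP above SVF in dog 2 and overlap in dog 3. GINS1 and GINS2 overlapped in both dogs. GINS1 stood at 8.94 and 8.31 in the dog 2 SVF arrays and 9.05 and 8.45 after PRP, and at 9.14 and 8.80 in the dog 3 SVF arrays and 9.07 and 8.30 after PRP. GINS2 read 6.24 and 6.40 untreated and 6.66 and 6.28 after PRP in dog 2, and 7.20 and 6.98 untreated and 7.07 and 6.83 after PRP in dog 3. GINS3 stood at 8.33 and 8.46 in the dog 2 SVF arrays and 8.56 and 8.93 after PRP, and at 8.62 and 8.53 in the dog 3 SVF arrays and 8.29 and 9.04 after PRP. In GINS1 the number 2 arrays were the lower ones in every group, in GINS3 the number 2 PRP arrays were the highest of all 8, and in GINS2 the 2 dogs stood apart more than the conditions did. Their differences after PRP were -0.08, 0.0073 and 0.22 (limma, adjusted p = 0.933, 0.992 and 0.725). CDT1, the partner of CDC6, MCM10, a factor of helicase activation, and CDC45 ran from 6.33 to 6.71, from 6.19 to 6.68 and from 5.52 to 6.17 and differed by -0.092, 0.007 and 0.062. In dog 3 both PRP arrays lay below both SVF arrays for CDT1 and MCM10.

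Polymerase genes went different ways. POLE2, the second subunit of the leading-strand polymerase epsilon, stood at 7.11 and 7.31 in the dog 2 SVF arrays and 7.28 and 8.11 after PRP, and at 7.67 and 7.73 in the dog 3 SVF arrays and 7.72 and 8.44 after PRP. Its number 2 PRP arrays were the highest in both dogs while the number 1 PRP arrays lay close to SVF, and the difference was 0.43 ± 0.23 log2 units (SE, limma, adjusted p = 0.58). PRIM1, the catalytic primase subunit that starts each new strand, read 8.21 and 7.94 untreated and 8.68 and 8.07 after PRP in dog 2, and 8.04 and 7.58 untreated and 8.08 and 6.90 after PRP in dog 3. It ran the other way between the numbers, with dog 3 PRP 2 the lowest of all arrays, and its difference of -0.011 ± 0.28 log2 units (SE) was much smaller than its error. POLA1, the catalytic subunit of polymerase alpha, stood at 8.28 and 8.26 in the dog 2 SVF arrays and 8.26 and 8.08 after PRP, and at 8.21 and 8.28 in the dog 3 SVF arrays and 8.18 and 7.71 after PRP. Only dog 3 PRP 2 stood clearly low, and the difference was -0.20 ± 0.14 log2 units (SE, limma, adjusted p = 0.674). POLE, the catalytic subunit of polymerase epsilon, ran from 6.30 to 6.89 over the 8 arrays and differed by 0.064.

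PCNA, the sliding clamp, was higher in every PRP array than in the SVF arrays of the same dog. PCNA stood at 9.27 and 9.04 in the dog 2 SVF arrays and 9.47 and 9.56 after PRP, and at 9.42 and 9.38 in the dog 3 SVF arrays and 9.66 and 9.55 after PRP. The difference was 0.28 ± 0.12 log2 units (SE, limma, adjusted p = 0.529), or 1.21-fold, with a 95% interval from -0.00037 to 0.56. LIG1, the ligase that joins Okazaki fragments, went the other way and read 7.66 and 7.86 untreated and 7.64 and 7.59 after PRP in dog 2, and 8.01 and 7.86 untreated and 7.86 and 7.40 after PRP in dog 3. Both its PRP arrays lay below both SVF arrays in each dog, although the nearest values in dog 3 round alike, with a difference of -0.23 ± 0.15 log2 units (SE, limma, adjusted p = 0.641). RFC4, a clamp loader subunit, stood at 7.98 and 7.56 in the dog 2 SVF arrays and 8.07 and 7.62 after PRP, and at 8.22 and 7.38 in the dog 3 SVF arrays and 8.13 and 7.67 after PRP. Its number 1 arrays were the higher ones in each group, and the difference was 0.089. RFC2, RFC3 and RFC5, of the same loader, ran from 7.05 to 7.81, from 6.79 to 7.19 and from 7.86 to 8.42. They differed by -0.082, 0.08 and -0.22. RFC5, mentioned after its values were seen, was the other gene besides LIG1 with PRP below SVF in both dogs.

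In nucleotide supply RRM2 had the largest difference of all 33 genes. It encodes the small subunit of ribonucleotide reductase, whose level sets the supply of deoxynucleotides in S phase. RRM2 stood at 7.68 and 7.05 in the dog 2 SVF arrays and 8.04 and 7.85 after PRP, and at 8.55 and 8.04 in the dog 3 SVF arrays and 8.75 and 9.17 after PRP. PRP exceeded SVF without overlap in each dog, and dog 3 stood above dog 2 in both conditions. The difference was 0.62 ± 0.20 log2 units (SE, limma, adjusted p = 0.466), or 1.54-fold, with a 95% interval from 0.15 to 1.10 and an unadjusted p of 0.0168. In the number 1 pairs it was 0.36 in dog 2 and 0.20 in dog 3, and in the number 2 pairs 0.79 and 1.14. Leaving out any 1 of the 8 arrays gave differences from 0.46 to 0.78.

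RRM1, the large subunit of the same enzyme, did not follow it. RRM1 read 8.91 and 8.39 untreated and 8.95 and 8.70 after PRP in dog 2, and 9.23 and 8.68 untreated and 9.08 and 8.61 after PRP in dog 3. The conditions overlapped in both dogs, with a difference of 0.03 ± 0.20 log2 units (SE). TK1, the thymidine kinase of S phase, stood at 7.28 and 7.52 in the dog 2 SVF arrays and 7.59 and 7.54 after PRP, and at 7.32 and 7.71 in the dog 3 SVF arrays and 7.58 and 7.66 after PRP. Its arrays separated in dog 2 only, and the difference was 0.14 ± 0.14 log2 units (SE, limma, adjusted p = 0.766). TYMS, thymidylate synthase, ran from 6.41 to 6.91 and differed by -0.082, and by -0.033 on its other feature.

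The regulators of S phase entry differed little between the conditions. E2F1, the transcription factor that switches on many of the genes above, stood at 6.91 and 7.10 in the dog 2 SVF arrays and 7.27 and 7.06 after PRP, and at 7.57 and 7.30 in the dog 3 SVF arrays and 7.42 and 7.33 after PRP. CCNE2, a cyclin E, read 7.14 and 7.40 untreated and 7.27 and 7.81 after PRP in dog 2, and 7.61 and 7.36 untreated and 7.41 and 7.35 after PRP in dog 3. PRP and SVF overlapped in both dogs for each, with differences of 0.051 and 0.081, and CCNE1, the other cyclin E, ran from 6.85 to 7.49 and differed by -0.025. CHEK1, the kinase that restrains S phase when forks stall, stood at 6.66 and 6.73 in the dog 2 SVF arrays and 6.93 and 6.74 after PRP, and at 7.01 and 6.54 in the dog 3 SVF arrays and 6.86 and 6.81 after PRP. BRCA1, a repair factor at stalled forks, read 6.04 and 5.78 untreated and 6.25 and 5.70 after PRP in dog 2, and 6.45 and 5.89 untreated and 6.09 and 5.46 after PRP in dog 3. CHEK1 differed by 0.10 ± 0.14 log2 units (SE, limma, adjusted p = 0.838) and BRCA1 by -0.16 ± 0.22 log2 units (SE, limma, adjusted p = 0.826), and neither separated in both dogs.

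**Figure D2:**
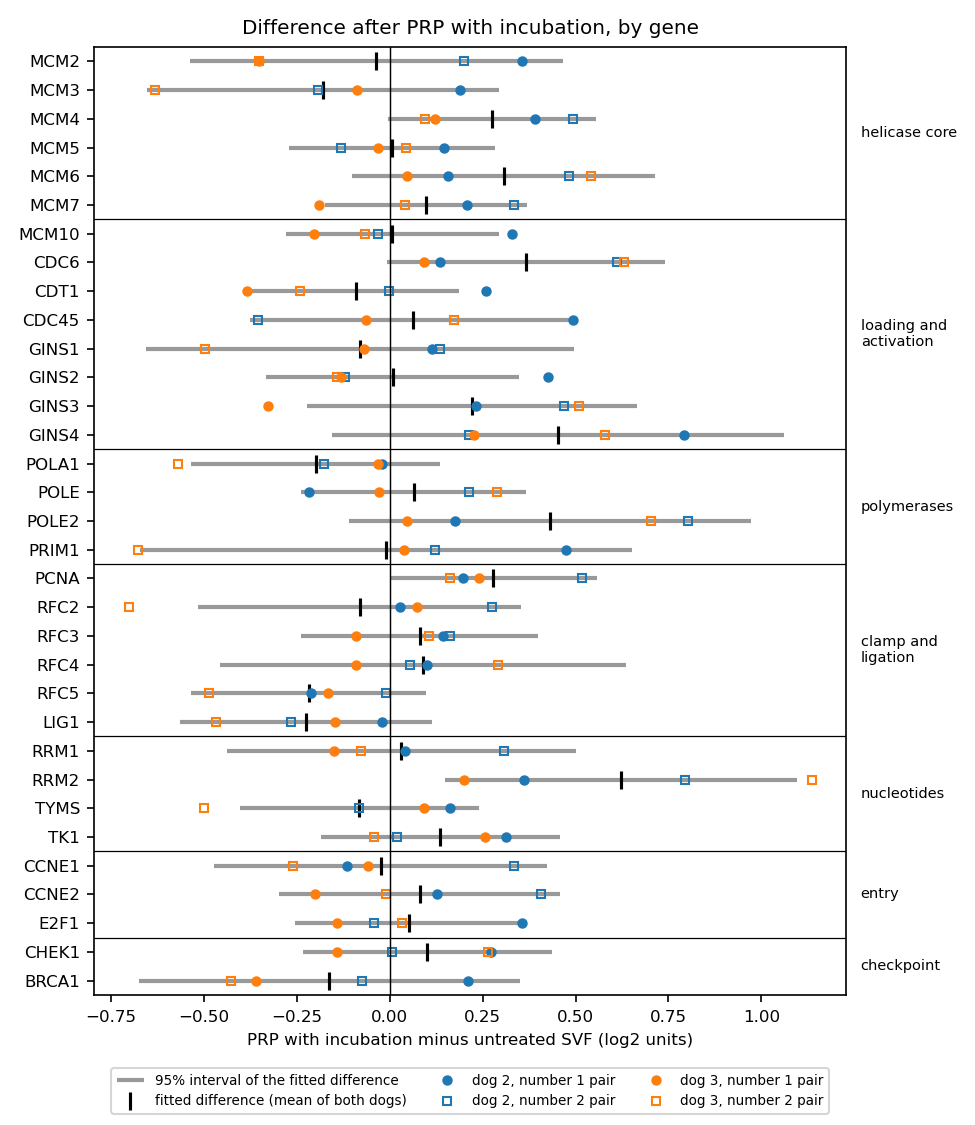
PRP with incubation minus untreated SVF in log2 units for each gene, as the 4 same-numbered pairs (points), the fitted difference (black tick) and its 95% interval (grey bar). The interval of RRM2 (0.15 to 1.10) is the only one that does not reach 0, and PCNA, CDC6 and MCM4 come next.

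Counted by separation of the arrays, 3 of 33 genes (9.09%) lay above SVF in both dogs, RRM2, PCNA and CDC6, beside 5.15% of all genes. Below SVF in both dogs lay LIG1 and RFC5, 2 of 33 (6.06%), beside 8.42% of all genes. In all 4 same-numbered pairs PRP was higher for 7 genes (21.2%) and lower for 3, beside 12% and 15.7% of all genes. Within dog 2, 11 genes lay above (33.3%) and 2 below, beside 19.6% and 16.1% of all genes. Within dog 3, 3 lay above and 5 below (15.2%), beside 10.2% and 22.3%. The median difference was 0.15 in dog 2, with 28 of 33 higher, and -0.075 in dog 3, with 15 of 33 higher, beside 53.6% and 43.6% of all genes. An interaction term for the dogs' responses gave 0 of 33 in limma and 0 of 33 at an unadjusted p below 0.05, beside 0% and 0.552%. The median of this term, dog 3 minus dog 2, was -0.215 and depended on single arrays. It was -0.065 without dog 3 PRP 2 and -0.395 without dog 3 PRP 1, the extremes when 1 array was left out.

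Markers of other cells were set beside these values. The mean level of 11 of 12 listed T and NK cell markers was 7.37 and 6.95 in dog 2 and 7.75 and 7.33 in dog 3 in SVF, against 7.97 and 7.56 in dog 2 and 7.97 and 8.01 in dog 3 after PRP, and all 11 had higher means after PRP. The mean level of 6 adipocyte markers was 11.79 and 11.43 in dog 2 and 10.73 and 10.50 in dog 3 in SVF, against 10.99 and 11.12 in dog 2 and 9.74 and 9.20 in dog 3 after PRP, and all 6 had lower means. After PRP 6 of 6 genes marking pericytes and smooth muscle also had lower means (median -0.29, 3 at an unadjusted p below 0.05). Of 4 platelet markers measured, 3 had higher means, and 1 passed, PPBP, a platelet chemokine mentioned after its value was seen. It differed by 2.71 ± 0.19 log2 units (SE, limma, adjusted p = 0.0295). The part of these cells in the replication gene values was not tested.

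Genes around this core were taken from lists written for this work, and in limma 0 of their members passed an adjusted p of 0.05 over all features after PRP. The counts of these lists stand beside 47.4% of all genes with higher means. At an unadjusted p below 0.05 (limma) they stand beside 3.11% of all genes higher and 5.21% lower. They are given for all 8 arrays only, so their dependence on single arrays is not shown. Of 36 further replication factors, 24 had higher means (median 0.088) and 3 an unadjusted p below 0.05, all higher. These were DBF4, the activator of the origin-firing kinase CDC7, TIPIN, a fork protection protein, and ORC2, an origin recognition subunit. DBF4 differed by 0.46 ± 0.15 log2 units (SE, limma, adjusted p = 0.465), TIPIN by 0.34 ± 0.12 log2 units (SE) and ORC2 by 0.44 ± 0.18 log2 units (SE), each with PRP above SVF in both dogs. Of 12 further genes of nucleotide supply 8 were higher (median 0.26), with 2 higher and 1 lower at an unadjusted p below 0.05. PAICS and SHMT1, of purine and folate metabolism, differed by 0.48 and 0.36, and TK2, the mitochondrial thymidine kinase, by -0.62 ± 0.18 log2 units (SE, limma, adjusted p = 0.446).

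Among 22 regulators of the retinoblastoma and E2F switch 14 were higher (median 0.08) and 1 had an unadjusted p below 0.05, with E2F6, a repressor E2F, at 0.51 ± 0.18 log2 units (SE, limma, adjusted p = 0.478), E2F3 at 0.59 and CDK4 at 0.29. CCND1 and MYC, which drive entry into the cycle, differed by -0.00093 and -0.16, and CCNA2, the S phase cyclin A, by 0.23. Of 18 other checkpoint and repair genes 16 were higher (median 0.12), with 0 at an unadjusted p below 0.05. FANCA, a Fanconi anaemia protein, differed by -0.33, BRIP1, a helicase of repair, by 1.12 and RAD17, a checkpoint clamp loader, by 0.24. Of 8 CDK inhibitors and growth arrest genes 4 were higher (median -0.019), with 0 at an unadjusted p below 0.05. CDKN1A, the inhibitor p21, differed by 0.55 ± 0.27 log2 units (SE, limma, adjusted p = 0.553), CDKN1B by -0.22, CDKN2D by -0.17 and BTG2, an antiproliferative gene, by -0.46. Of 28 mitosis genes 24 were higher (median 0.25), 2 of them at an unadjusted p below 0.05. The spindle genes ASPM, NUF2 and NUSAP1 differed by 0.74 ± 0.24 log2 units (SE), 0.81 ± 0.32 log2 units (SE) and 0.45. The proliferation marker MKI67 differed by 0.35 ± 0.54 log2 units (SE) and TOP2A, the topoisomerase of cycling cells, by 0.34 ± 0.47 log2 units (SE), both within wide errors.

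The arrays numbered 1 and 2 were compared next, for PRP and SVF separately. With dog as a term, 9 of 33 genes had an unadjusted p below 0.05 between the second and first PRP samples (27.3%, beside 19% of all genes), 3 higher and 6 lower in the second. None of the 33 passed over all features in limma, where 0.114% of features did. POLE2, GINS3 and CDC6 were higher in the second sample of both dogs. POLE2 was higher by 0.83 in dog 2 and 0.72 in dog 3 (limma, adjusted p = 0.108). GINS3 was higher by 0.37 and 0.75, and CDC6 by 0.49 and 0.38. PRIM1, GINS1, MCM3, GINS4, BRCA1 and RFC4 were lower in the second sample of both dogs. PRIM1 differed by -0.62 in dog 2 and -1.18 in dog 3 (limma, adjusted p = 0.192), GINS1 by -0.60 and -0.77, and MCM3 by -0.53 and -0.73. Without dog 3 PRP 2 the 6 lower genes became 0 and without dog 2 PRP 1 they became 1, and without dog 3 PRP 1 the 3 higher genes became 1. Over all 33 genes, 18 were lower and 4 higher in the second PRP array of both dogs (12.1% higher), beside 37.8% of all genes lower and 30.9% higher. Members of 1 complex thus stood on opposite sides, GINS3 above and GINS1 and GINS4 below.

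In the untreated arrays the second samples had lower means for 24 of 33 genes (median -0.13), where 43.7% of all genes were higher. Without dog 3 SVF 1 the median was -0.0097 with 16 of 33 higher, without dog 2 SVF 2 it was -0.067, and without dog 2 SVF 1 it was -0.26. In the SVF arrays an unadjusted p below 0.05 was found for 6 of 33 (18.2%, beside 17.7% of all genes), and 0 passed over all features in limma (beside 0.0154% of features). In SVF these were RFC4, MCM6, RRM1, RRM2 and GINS1, lower in the second sample, and TK1, higher. RFC4 differed by -0.41 in dog 2 and -0.84 in dog 3, and MCM6 by -0.47 and -0.56 (limma, adjusted p = 0.175 and 0.176). In the PRP arrays the second samples had lower means for 23 of 33 genes (median -0.13), where 46.2% of all genes were higher. Without dog 3 PRP 2 this median was -0.053, and without dog 2 PRP 2 it was -0.28. Mitosis genes also had lower means in the second samples, 26 of 28 after PRP (median -0.59) and 27 of 28 in SVF (median -0.50). Of these mitosis genes 18 were lower at an unadjusted p below 0.05 (limma) after PRP and 17 in SVF. Beside them, 1558 and 1911 of 15947 genes were lower at that p. KIF23, a motor protein of cell division chosen after its value was seen, was the 1 mitosis gene to pass between the PRP samples, lower by 1.31 in the second (limma, adjusted p = 0.045). No feature passed there when any array other than dog 2 PRP 2 was left out. Macrophage and monocyte markers moved with the numbers as well, with a mean level over 6 of 8 listed markers of 10.29 and 9.30 in the dog 2 PRP arrays 1 and 2, and 10.06 and 8.96 in SVF. In dog 3 they were 10.24 and 9.85 after PRP, and 10.31 and 9.84 in SVF. Their part in the differences between the numbers was not tested.

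**Figure D3:**
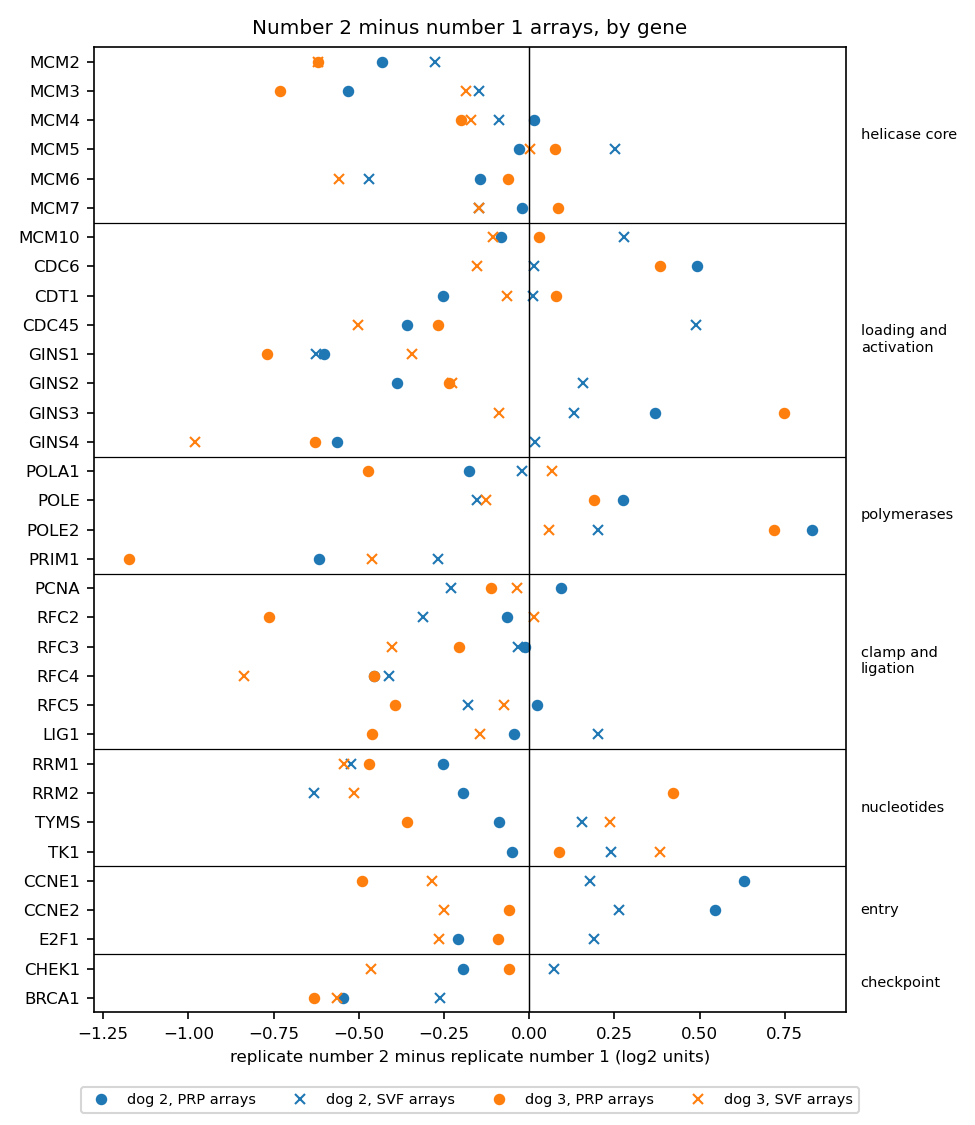
Replicate number 2 minus replicate number 1 in log2 units for each gene, for the PRP arrays (circles) and SVF arrays (crosses) of dog 2 (blue) and dog 3 (orange). POLE2 lies to the right in the PRP arrays of both dogs (0.83 and 0.72) and PRIM1 to the left (-0.62 and -1.18).

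Between the untreated cells of dogs 2 and 3, replication genes stood mostly higher in dog 3. There, 28 of 33 replication genes had the higher mean (median 0.19), beside 52.4% of all genes. Their mean level was 7.70 and 7.45 in the dog 3 SVF arrays 1 and 2, and 7.39 and 7.33 in those of dog 2. The size depended on the array: the median was 0.09 with 24 higher without dog 3 SVF 1. It was 0.31 with 29 higher without dog 3 SVF 2. Leaving out dog 2 SVF 1 gave 0.21 with 25 higher, and leaving out dog 2 SVF 2 gave 0.15 with 26 higher. Both dog 3 arrays lay above both dog 2 arrays for 12 genes (36.4%) and below for 0, beside 22.6% and 19.2% of all genes. In limma 0 of 33 passed, where 1.28% of features did, and 3 had an unadjusted p below 0.05, all higher in dog 3 (beside 6.52% of genes higher and 6.31% lower). They were RRM2 (0.92 ± 0.29 log2 units, SE, limma, adjusted p = 0.223), GINS2 (0.77 ± 0.21, adjusted p = 0.15) and MCM4 (0.43 ± 0.17, adjusted p = 0.37). Averaged over both conditions, with dog and condition as additive terms, RRM2 was 0.97 higher in dog 3 and GINS2 0.63 higher. Both passed (limma, adjusted p = 0.0173 and 0.0332), but 2375 of 32391 features passed in that fit as well. The 2 of 33 are therefore not read as an excess. Animal and preparation cannot be told apart here, since no fat was shared between the dogs. Markers of several cell types stood apart between the same arrays. Endothelial markers had lower means in dog 3 for 7 of 7 genes (median -1.54, 4 passing in limma), pericyte and smooth muscle markers for 6 of 6 (median -1.15, 3 passing) and adipocyte markers for 6 of 6 (median -1.03, 2 passing). Macrophage and monocyte markers had higher means in dog 3 for 6 of 6 (median 0.60, 0 passing, 0 at an unadjusted p below 0.05) and stromal markers for 9 of 9 (median 0.24, 0 passing, 2 at an unadjusted p below 0.05). The part of these cells in the replication gene values was not tested.

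The last question was how the thawed SVF of the 3 companies differed, all from portions of the same fat. Nearly all replication genes were highest in the company B array, by amounts that varied widely. All 33 genes were above company A, beside 34.6% of all genes higher, 25.6% lower and 39.8% with equal values, so that 57.5% of the genes that differed were higher in B. Against company C, 32 of 33 were higher in B, beside 35% of all genes higher in B, 25.6% higher in C and 39.4% equal. Company B was thus the highest of the 3 for 32 genes (97%), beside 28.5% of all genes. The median difference was 0.92 log2 units from A, and the median from B to C was -1.05, while over all genes both medians were 0. With 1 array per company there is no test and no replicate check. At least 2-fold above A lay 15 of 33 (45.5%, beside 4.51% of genes), and C lay at least 2-fold below B for 18 of 33 (54.5%, beside 3.82%). Between C and A 0 of 33 differed by 2-fold, beside 1.21% of genes higher and 0.426% lower. Of the 33 genes 21 were lower in C than in A, 8 higher and 4 equal, with a median of -0.13, beside 25.9%, 28.1% and 46% of all genes. This lean depended on scaling, with 14 higher and a median of -0.079 for arrays centred on their medians. With quantile normalization 13 were higher in C than in A, with a median of -0.088. A 2-fold difference between any pair of companies was found for 20 genes (60.6%), beside 12.6% of all genes.

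**Figure D4:**
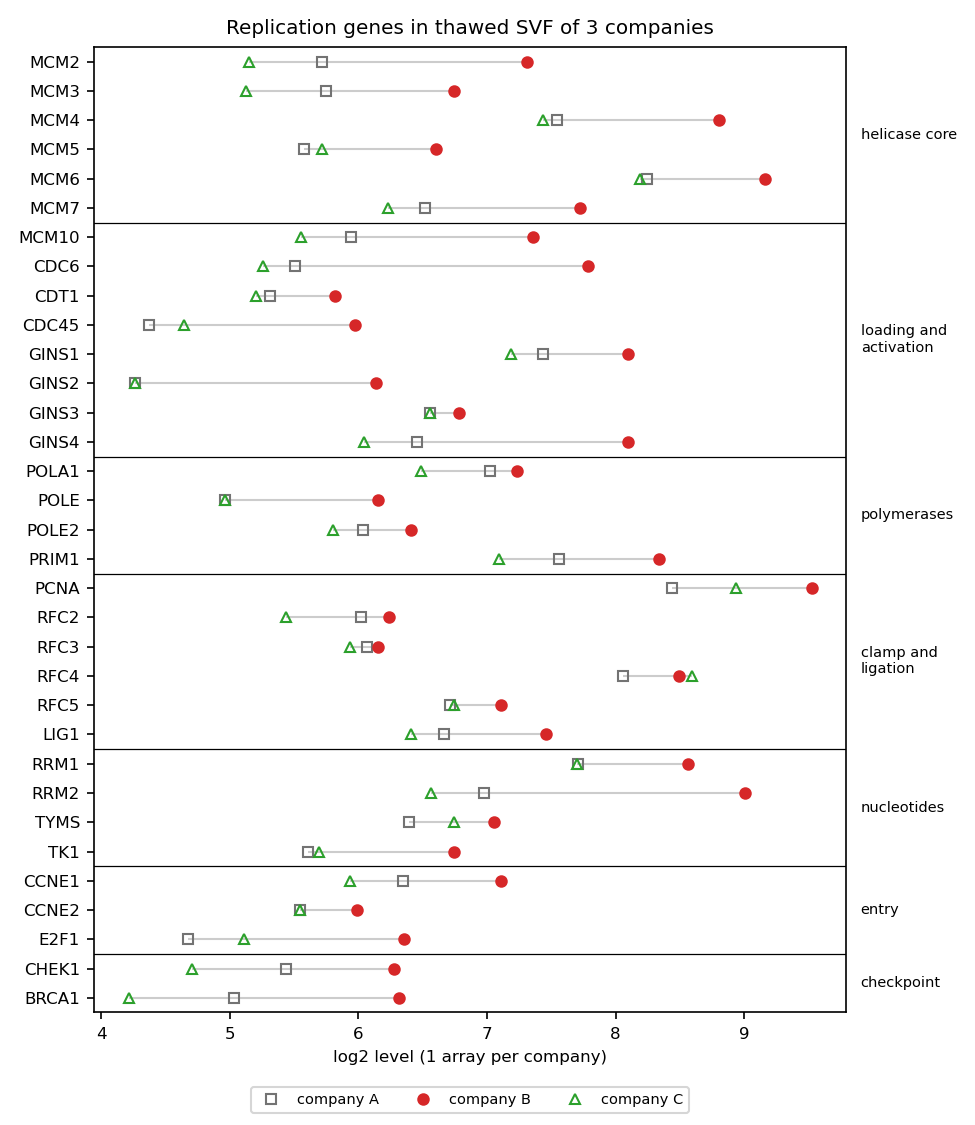
Log2 level of each of the 33 genes in the single thawed SVF array of company A (open squares), B (filled circles) and C (open triangles), grouped by role. Company B lies to the right of both others for 32 genes, by most in CDC6 (7.79 against 5.51 and 5.26), and RFC4 is the exception, at 8.50 in B and 8.59 in C.

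Of the genes that load and activate the helicase, 5 of 8 stood at least 2-fold above A (median 1.51), and the same number above C. CDC6 read 5.51, 7.79 and 5.26 in companies A, B and C, which was 4.86-fold above A and 5.77-fold above C. GINS2 read 4.26, 6.14 and 4.26, with one and the same value in A and C. GINS4 read 6.45, 8.09 and 6.04. In these 3 genes B stood at least 2-fold above both others. CDC45 read 4.37, 5.97 and 4.64 and MCM10 5.94, 7.36 and 5.55, also past 2-fold on both sides. CDT1, GINS1 and GINS3 were 0.51, 0.66 and 0.22 above A.

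In the helicase ring 4 of 6 subunits were past 2-fold above A (median 1.12). MCM2 read 5.72, 7.31 and 5.15 in A, B and C, MCM4 7.55, 8.81 and 7.43, and MCM7 6.52, 7.73 and 6.23. MCM5 read 5.58, 6.60 and 5.72 and lay just inside the fold above A (1.03), and MCM3 read 5.75, 6.75 and 5.13 and lay just outside it (0.99). MCM6 read 8.24, 9.16 and 8.19. All 6 subunits were thus above both other companies, by 0.92 to 1.60 above A.

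RRM2 was the second widest, at 6.97, 9.01 and 6.56 in A, B and C, or 4.1-fold above A. TK1 read 5.61, 6.74 and 5.69, and RRM1 7.71, 8.57 and 7.70. In these 3 genes B lay above both others. TYMS read 6.40, 7.06 and 6.74, with C closer to B. Of the polymerase genes POLE was past 2-fold (4.96, 6.15 and 4.96) and PRIM1 was past it only above C (7.56, 8.34 and 7.09), while POLA1 and POLE2 were 0.21 and 0.38 above A.

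PCNA read 8.44, 9.52 and 8.93 in A, B and C, with C between the others. LIG1 read 6.67, 7.46 and 6.41 and was past 2-fold above C only. The clamp loader had narrow gaps: RFC2, RFC3, RFC4 and RFC5 were 0.21, 0.085, 0.44 and 0.39 above A. For S phase entry E2F1 read 4.68, 6.35 and 5.11 and CCNE1 6.35, 7.11 and 5.94, and CCNE2 was 0.45 above A. Of the checkpoint genes BRCA1 read 5.03, 6.32 and 4.21 and CHEK1 5.43, 6.28 and 4.70, both with the order B, A, C.

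Other genes of the cycle differed in extent. Company B was at least 2-fold above A for 25 of 28 mitosis genes (median 1.87), with MKI67 at 7.01, 7.86 and 5.87 in A, B and C and TOP2A at 6.84, 8.68 and 6.79. It was so for 7 of 36 further replication factors (median 0.28), 4 of 22 retinoblastoma and E2F regulators (median 0.03), 3 of 18 checkpoint and repair genes (median 0) and 0 of 12 genes of nucleotide supply (median 0.34). CCNA2 read 5.39, 7.25 and 5.61 and CCND1 8.00, 9.27 and 8.06, both highest in B, while MYC read 7.69, 6.99 and 9.25 and was lowest there. CDK inhibitors and growth arrest genes had a median of -0.31 from A to B, with 4 of 8 higher and 4 lower in B. Company B was the highest of the 3 for 3 of these genes and the lowest for 4. CDKN1B, the inhibitor p27 of resting cells, read 9.54, 8.15 and 9.38, and BTG2 read 8.57, 6.40 and 10.49, both lowest in B. CDKN1A read 9.40, 10.37 and 10.58 and was lowest in A.

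Markers of immune and endothelial cells moved with the company B array in the other direction. The mean level of 6 of 8 listed macrophage and monocyte markers (CD14, CD68, CD163, CSF1R, MRC1 and CD86) was 8.17, 5.56 and 8.08 in A, B and C, and all 6 were lowest in B. For 11 of 12 T and NK cell markers it was 6.09, 4.35 and 6.14, with 8 lowest in B and CD3E at 6.60, 3.52 and 6.46. Of these, 3 lay under the lower quartile of the company B array and 0 under that of A or C. For 7 endothelial markers the means were 6.17, 4.31 and 6.71, with 6 lowest in B. Stromal markers differed little, at 10.81, 10.72 and 10.84, with 4 of 9 highest and 4 lowest in B. No value of 0 occurs on this scale and no detection calls were used. The part of cell makeup in the replication gene differences was not tested.

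**Figure D5:**
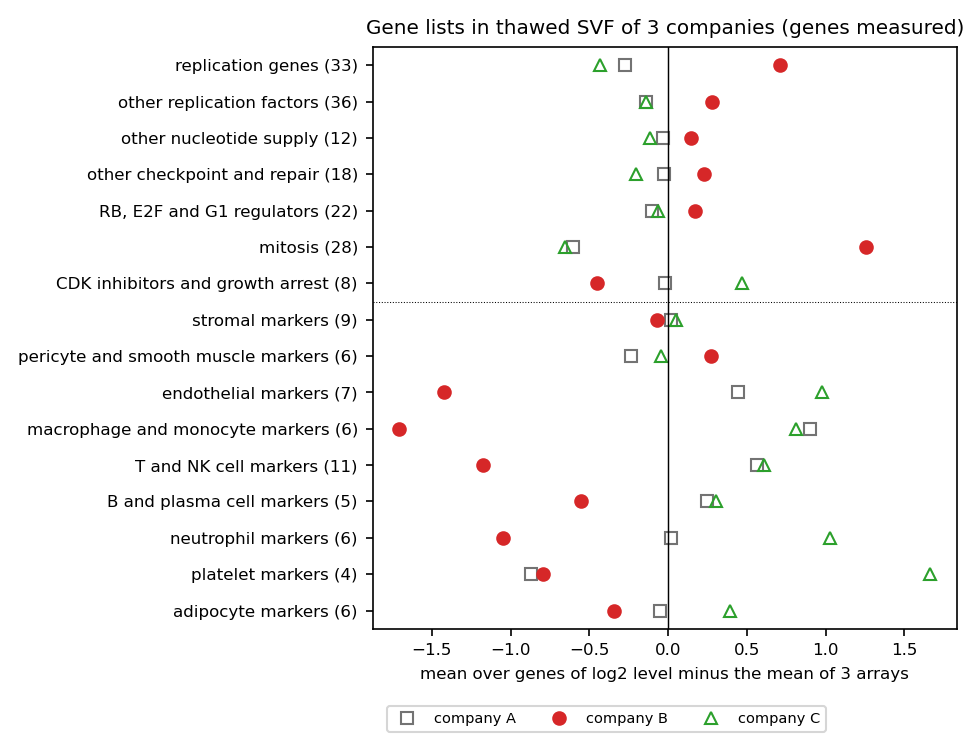
Mean over the genes of each list of the log2 level minus that gene's mean over the 3 company arrays, with the number of genes measured in brackets and cell type markers under the dotted line. Company B (filled circles) is the highest for replication genes (0.71) and mitosis genes (1.26) and the lowest for macrophage (-1.71), endothelial (-1.42) and T and NK cell markers (-1.17).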

How the data were processed

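Total RNA, 6 µg per sample, was labelled with biotin for hybridisation to Affymetrix arrays, according to the labels' protocols. The authors deposited 1 table of log2 values (range 1.22 to 14.8) for 32391 features and 11 arrays, the scale being judged from the values. The submitters' processing notes name Partek and give no version. The array's build, probe summarization and normalization were not given in the sources used here, and coordinates are left out. In the platform annotation 16545 features name 1 gene, 370 several and 15476 none. Of the 33 genes 31 were matched by gene identifier to the UU_Cfam_GSD_1.0 gene table, with 0 differing symbols, and MCM7 and POLA1 keep the file's name.

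The 8 arrays of dogs 2 and 3 entered 1 limma model with 4 group means (version 3.58.1, R 4.3.3, eBayes, 4 residual degrees of freedom, no filter), and p-values were adjusted over all features by Benjamini and Hochberg, with 0.05 as the threshold. Replicate numbers were compared in a fit of condition and number with dog as a term. The fits were tested on simulated data. Deviations from group means of same-numbered arrays correlated at 0.395 within dog 2 and 0.241 within dog 3. They correlated more across the dogs within a condition, at 0.513 for SVF and 0.597 for PRP. Across both dog and condition they correlated at 0.239 and 0.306. In 1 alternative fit the numbers were taken as pairs within a dog, with a replicate block, and in another the number was a term. Company arrays were compared as differences, with 2-fold as the threshold. The members, lists and tests were chosen with earlier results of these data known. Genes with values in every array were, in each role, the 2 with the largest PRP difference and any with an unadjusted p below 0.05 in a contrast. For companies they were genes past 2-fold, with some close to it added, and for other lists up to 3 with the smallest p plus MKI67, TOP2A, CCNA2, CCND1, MYC, CDKN1A and CDKN1B. Alternatives changed the filter, scaling, variance model, model terms and arrays used.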

Additional observations from a re-analysis of the deposited data

How the results depend on the processing

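Across the alternatives run, 0 replication genes passed the threshold after PRP, in the test of the dogs' responses, or between the replicate numbers in PRP or SVF arrays. The median PRP difference (0.051) was 0.12 with arrays centred on their medians and 0.11 with repeated quantile normalization, with 24 of 33 genes higher under each. The median of all genes moved from -0.014 to 0.059 and 0.018 under these. The replication genes' median turned negative when dog 3 SVF 2 (-0.021) or dog 2 PRP 1 (-0.0014) was left out, and without both number 1 PRP arrays, a setting added after the data were seen (-0.0061). The range over single arrays left out was -0.021 to 0.12, and without both number 2 PRP arrays it was 0.13. The count of 2 features passing after PRP was 1 with a filter on dim features, with additive dog and condition and with the replicate number as a term. It was 0 with the replicate block of same-numbered pairs, 0 without each single array (range 0 to 0), 0 without both number 2 PRP arrays and 98 without both number 1 PRP arrays, with 0 replication genes among the 98. The block changed no call of a replication gene. Where an array was left out, the array left alone was given the spread of the other groups, and such fits for the replicate numbers were also added after the data were seen. Between the untreated dogs 0 replication genes passed, and 2 (RRM2 and GINS2) did with additive dog and condition, where the contrast also takes in the PRP arrays. In that additive fit 2375 of 32391 features passed. Counts of genes past 2-fold between companies (20 between any pair) were 20 with quantile normalization, 23 with centred arrays and 20 with the mean of all features of a gene. Features passing between the PRP samples (37) ranged from 0 to 448 with 1 array left out, with 448 without dog 2 PRP 2 and 0 without each other array. Those between the SVF samples (5) were 0 without each array. The causes of these shifts were not tested. The number of arrays, 2 per group and 1 per company, limits the precision. The planned search for E2F motifs in promoters was not run, since no promoter sequences were at hand.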

Other observations

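Within the origin recognition complex, which marks where replication starts, ORC1 and ORC6 stood higher in company B. ORC1 read 4.74, 5.76 and 4.73 in A, B and C and ORC6 4.48, 6.32 and 4.82, while ORC2, ORC3 and ORC5 each had 1 identical value on all 3 arrays and ORC4 read 8.42, 8.38 and 8.42. Such identical values were found for 32.8% of genes and for 0 of the 33 replication genes, and how they arose was not tested. They are not read as a contrast with ORC1 and ORC6. Also at least 2-fold above A in company B were ASF1B, a histone chaperone of replicating chromatin (6.24, 8.04 and 6.18), POLA2, a polymerase alpha subunit (5.72, 7.10 and 5.67), UHRF1, which guides maintenance methylation (5.40, 6.59 and 5.22), DTL, which targets CDT1 for degradation (6.24, 7.29 and 5.83), and POLE3, a polymerase epsilon subunit (7.55, 8.59 and 8.02). POLD3, a polymerase delta subunit, went the other way (6.60, 5.72 and 6.38). These genes were chosen after their values were seen.

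BRIP1, a helicase that works with BRCA1, stood at 5.92 and 6.26 in the dog 2 SVF arrays and 6.16 and 7.64 after PRP, and at 6.24 and 6.67 in the dog 3 SVF arrays and 6.43 and 9.33 after PRP. The second PRP array was the highest in each dog, while BRCA1 itself was lower in those arrays.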
